A study of Homo sapiens with 12 samples.

Results

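The transcripts described here are 9 antioxidant and metabolic genes that the transcription factor NRF2 (encoded by NFE2L2) is known to activate: HMOX1, NQO1, TXNRD1, SRXN1, GCLC, GCLM, SLC7A11, ME1 and OSGIN1. They were chosen by name as textbook NRF2 targets, with earlier results of these data known, and they are 9 of the 20345 gene rows in the table. All 9 had a row, and all 9 passed the filter on low values (averaging 1 FPKM or more across the 12 libraries), as 11225 rows did. FPKM counts the fragments of a gene per kilobase of its length and relative to all fragments mapped in the library.

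RNA was sequenced from HGC-27, an undifferentiated human gastric cancer cell line, in 4 groups of 3 libraries. The cells named WT here carry no genotype label, and WT was taken from the series' design and their titles, which begin with NC. They were left untreated (titles numbered 1, 2 and 3) or given GLUP (numbered 14, 15 and 16). Cells labelled TEAD4KO, a knockout of TEAD4, were sequenced in the same pair of conditions under the same numbers. GLUP is a cyclic peptide designed to bring TEAD4 molecules together by binding them. TEAD4 is the Hippo pathway factor that YAP and TAZ use to reach DNA. The study's methods name a buffer as the negative control of its RNA sequencing, without tying it to these libraries. The labels give no dose, and the study's text gives the treatment time in more than one way, so neither is stated here. The sources used here do not say how the knockout was made or whether it is 1 clone. The study's methods speak of biological replicates without tying them to these libraries. The p-values rest on the spread between the 3 libraries within a group, pooled over the 4 groups, and part of that spread may be technical.

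In resting cells NRF2 is bound by KEAP1, an adaptor of a CUL3 ubiquitin ligase, and is degraded. Electrophiles and oxidants modify cysteines of KEAP1, NRF2 then accumulates, pairs with a small MAF protein and binds antioxidant response elements, whereas BACH1 competes for the same elements and represses HMOX1 in particular. The targets rebuild reducing power: GCLC and GCLM are the catalytic and modifier subunits of glutamate-cysteine ligase, the first step of glutathione synthesis, and SLC7A11 is the cystine carrier of the xc- antiporter that feeds it. TXNRD1 reduces thioredoxin and SRXN1 repairs over-oxidised peroxiredoxins. NQO1 reduces quinones, HMOX1 opens the haem ring, ME1 makes NADPH from malate, and OSGIN1 is a stress-induced regulator of cell growth.

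The motif that NRF2 binds is shown first, although the members were chosen by name and not by this motif. Promoter windows of RefSeq on GRCh38.p14, each from 250 bases before to 50 bases after a gene start, were matched by symbol. For 7 of the 9 members there was an entry, with 8 windows in all, since TXNRD1 had 2 starts. Entries for HMOX1 and SLC7A11 were not used here. The antioxidant response element core was searched as TGACNNNGC on both strands. It stood in 13.3% of the 35116 windows of that length and in the windows of 3 members (GCLM, ME1 and TXNRD1; 4 of the 8 windows). Below, 1 match before each of these gene starts is given in capitals within its flanks, read on the strand of the gene. In GCLM and at the downstream TXNRD1 start the core lies on the opposite strand, so the capitals there read as its reverse complement.

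GCLM, chr1:93909431-93909500, minus strand: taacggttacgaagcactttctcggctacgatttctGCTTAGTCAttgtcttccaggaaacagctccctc
ME1, chr6:83431144-83431224, minus strand: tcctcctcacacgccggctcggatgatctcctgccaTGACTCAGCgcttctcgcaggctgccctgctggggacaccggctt
TXNRD1, upstream start, chr12:104215644-104215724, plus strand: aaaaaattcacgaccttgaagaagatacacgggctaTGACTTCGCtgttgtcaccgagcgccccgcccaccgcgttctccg
TXNRD1, downstream start, chr12:104286894-104286974, plus strand: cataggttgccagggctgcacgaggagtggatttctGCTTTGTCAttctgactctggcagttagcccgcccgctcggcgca

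The cores begin 34 bases before the start of GCLM, 137 before that of ME1, and 99 and 102 before the upstream and downstream starts of TXNRD1. A further match began 11 bases after the ME1 start and another 8 before the upstream TXNRD1 start. The AP-1 site, searched as TGANTCA, was in 7.71% of all windows and in those of 2 members. In ME1 its letters lie inside the core printed above. In OSGIN1, which held no core in this window, it begins 97 bases before the start and is shown because OSGIN1 is one of the members with the widest spread across the libraries.

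OSGIN1, chr16:83953107-83953185, plus strand: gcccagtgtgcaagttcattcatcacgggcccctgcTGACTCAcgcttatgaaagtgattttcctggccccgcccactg

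The TEAD site, searched as GGAATG, was in 14% of all windows and, among the members, only in that of SRXN1, 51 bases before its start. The windows of GCLC and NQO1 held none of these letters. A match is a description of the sequence, and no match says only that these letters are not in the window.

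**Figure D1:**
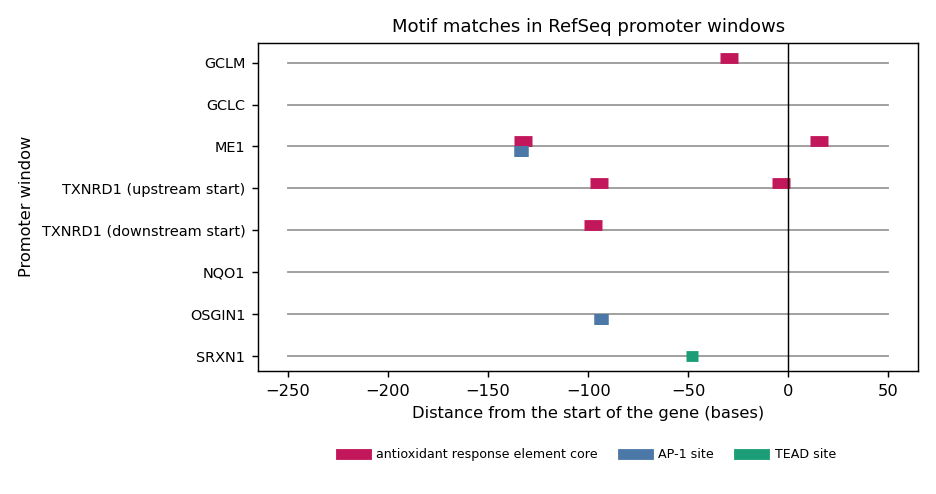
Matches to 3 motifs in the 8 RefSeq promoter windows of 7 members. The x axis is the distance from the gene start in bases (250 before to 50 after), each grey line is 1 window, and the coloured bars are matches on either strand: antioxidant response element cores lie in GCLM, ME1 and TXNRD1, AP-1 sites in ME1 and OSGIN1, and a TEAD site in SRXN1.

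On the whole series, the FPKM total was 375361 to 384477 in WT libraries and 397321 to 423757 in those labelled TEAD4KO, and rows at 0 made up 21.1% to 22.3% and 23.7% to 25.5%, so both split by label without overlap. The sequencing depth behind them is unknown. On the first principal component (39.7% of the variance) WT libraries lay between -16.2 and -3.71 and 4 of the TEAD4KO libraries between 9.91 and 19.8, while TEAD4KO untreated 1 (-0.96) and TEAD4KO GLUP 16 (-5.26) lay nearest to WT. The TEAD4 transcript was not lower in the libraries labelled TEAD4KO (26.0 to 30.1 FPKM) than in WT (22.9 to 25.8 FPKM), so the transcript does not show the knockout. Its level does not measure TEAD4 protein, which these data do not hold. The libraries are therefore named below as libraries labelled TEAD4KO wherever a direction is drawn. Of 9 epithelial and carcinoma markers, KRT8 (3.78 to 9.13 FPKM) and CDH1 (2.04 to 3.68 FPKM) were over 1 FPKM in every library, 6 were under 1 FPKM in all (EPCAM, KRT18, KRT19, TFF1, MUC5AC and CLDN18), and TFF1 was at 0 throughout. Vimentin (VIM) was at 1238 to 1704 FPKM and ZEB1 at 15.9 to 23.3. Of 8 markers of other cells, 7 had a row: the fibroblast genes COL1A1 (155 to 304 FPKM) and DCN (55.1 to 77.6 FPKM) were high in every library, the other 5 were under 1 FPKM, and the T-cell gene CD3E and the erythroid gene HBB were at 0.

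Taking the 12 libraries together, NQO1 was the most abundant member at a mean of 97.0 FPKM, followed by TXNRD1 at 77.6. ME1 (23.4), HMOX1 (22.9) and SRXN1 (22.1 FPKM) formed a middle tier, then came GCLC (15.8), GCLM (11.2), SLC7A11 (8.75) and OSGIN1 (5.10 FPKM). These are levels per length of transcript. ME1 exceeded HMOX1 in 6 of the 12 libraries and HMOX1 exceeded SRXN1 in 7, so the order within the middle tier is not beyond the spread. NQO1 exceeded TXNRD1 within each of the 12 libraries although their ranges across libraries overlap, and the same held for GCLM over SLC7A11. HMOX1 varied most, with its highest library at 1.82 times its lowest, then OSGIN1 (1.78) and SLC7A11 (1.48). The remaining 6 members stayed between 1.20 and 1.33.

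**Figure D2:**
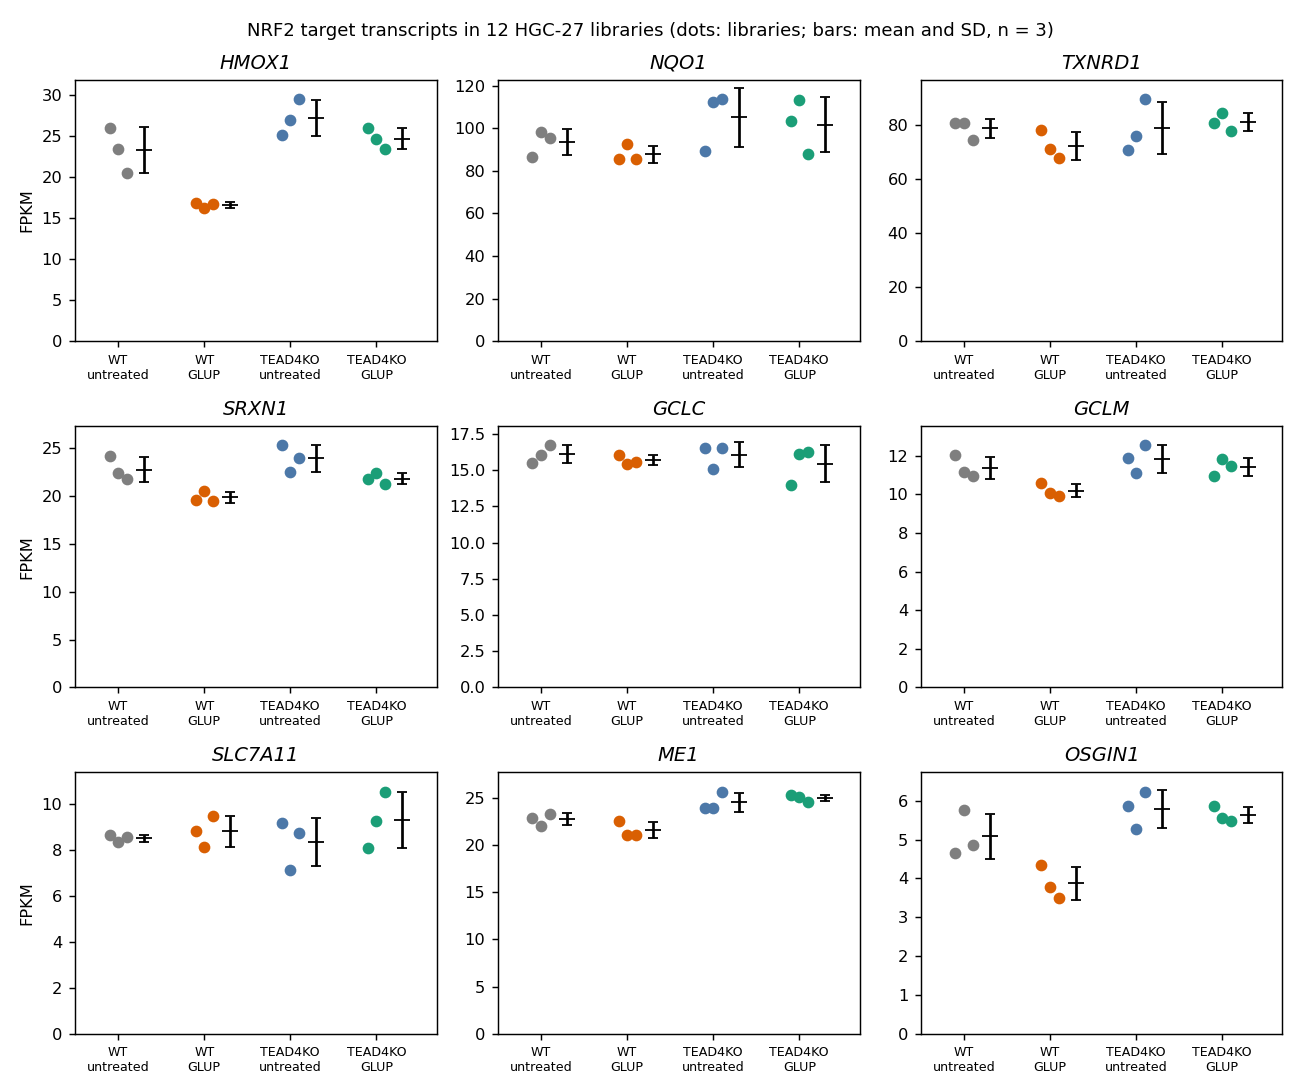
FPKM of each of the 9 members in every library, with 3 dots per group and the mean and SD (n = 3) beside them. The y axes start at 0 and differ between panels; the 3 WT libraries with GLUP sit lowest for HMOX1 (16.2 to 16.9 FPKM) and OSGIN1 (3.51 to 4.33 FPKM).

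The first question was what GLUP did to these transcripts in WT cells. No member passed the test (limma on log2(FPKM + 1), a call at an adjusted p under 0.05 over all rows; 0.00891% of all rows were called in this comparison, 1 of 11225). In WT cells all 3 libraries with GLUP held less HMOX1 and OSGIN1 than all 3 without, with the largest log2 differences among the members. The same held for SRXN1 and GCLM with smaller log2 differences. At an unadjusted p under 0.05 there were 3 members, all lower (HMOX1, OSGIN1 and SRXN1), against 1.31% of all rows lower. Groups did not overlap for 4 members, again all lower, against 7.16% of all rows. The log2 difference was negative in 8 of the 9, with a median of -0.12 against 0.0088 over all rows tested, of which 46.1% were negative. Fold changes on this scale understate the change of low genes.

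HMOX1, the haem oxygenase (ENSG00000100292; GRCh37 chromosome 22, 35776354 to 35790207, plus strand, 5 exons), had 26.0, 23.5 and 20.5 FPKM in the untreated WT libraries, whereas those with GLUP had 16.9, 16.2 and 16.8. Libraries labelled TEAD4KO held 25.1, 26.9 and 29.5 FPKM of it untreated, and 26.0, 24.6 and 23.4 with GLUP. The 3 WT libraries with GLUP are below all 9 others. The mean in WT went from 23.3 ± 2.75 to 16.6 ± 0.349 FPKM (SD, n = 3), a ratio of 0.713. Its log2 difference was -0.46 ± 0.08 (SE; 95% interval -0.64 to -0.28), with an unadjusted p of 0.000106 from limma, the fifth smallest of all rows, and an adjusted p of 0.238. Array weights weight each library by its scatter in these same data, not by a separate measure of quality. With them the adjusted p was 0.00462 (log2 difference -0.49), where 0.543% of all rows were called, so the call depends on that setting. Under TEAD4KO the difference was -0.13 ± 0.08 (adjusted p = 0.897) and the groups overlap.

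OSGIN1 (ENSG00000140961; chromosome 16, 83964916 to 83999937, plus strand, 6 exons) was the least abundant member. Untreated WT libraries held 4.65, 5.75 and 4.86 FPKM, and WT libraries with GLUP 4.33, 3.78 and 3.51. Libraries labelled TEAD4KO had 5.86, 5.26 and 6.24 FPKM untreated and 5.88, 5.55 and 5.49 with GLUP. WT with GLUP again holds the 3 lowest of the 12 values, here by a small gap. The log2 difference with GLUP was -0.32 ± 0.10 in WT (limma, adjusted p = 0.886) and -0.03 ± 0.10 in the libraries labelled TEAD4KO (adjusted p = 0.982). The gene model overlaps that of MLYCD, and strand-specific counting is not given in the sources used here, so reads in the overlap cannot be assigned. MLYCD itself was at 1.94 to 2.53 FPKM in WT and at 2.63 to 3.94 in libraries labelled TEAD4KO, so it was higher under that label. Its part in the OSGIN1 values was not tested.

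Among the thioredoxin-side enzymes, SRXN1 (ENSG00000271303; chromosome 20, 627259 to 633844, minus strand, 2 exons) stood at 24.2, 22.4 and 21.7 FPKM in WT without GLUP, and at 19.6, 20.5 and 19.4 with it. The libraries labelled TEAD4KO gave 25.3, 22.5 and 23.9 FPKM untreated against 21.8, 22.4 and 21.3 with GLUP. It is the only member whose GLUP libraries were below the untreated ones, without overlap, under both genotype labels. The log2 differences were -0.19 ± 0.06 (limma, adjusted p = 0.999) and -0.13 ± 0.06 (adjusted p = 0.810). TXNRD1 (ENSG00000198431; chromosome 12, 104609557 to 104744085, plus strand, 17 exons), whose gene model overlaps EID3 (0.26 to 1.25 FPKM), was at 80.7, 80.7 and 74.5 FPKM in untreated WT and at 77.9, 70.9 and 67.9 with GLUP. The corresponding values in libraries labelled TEAD4KO were 70.8, 75.9 and 89.5 untreated and 80.5, 84.3 and 77.6 with GLUP. These groups overlap under both labels, with log2 differences of -0.12 ± 0.08 and 0.04 ± 0.08.

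For the glutathione members, GCLM (ENSG00000023909; chromosome 1, 94350755 to 94375012, minus strand, 7 exons) was at 12.02, 11.2 and 10.9 FPKM in untreated WT and at 10.6, 10.1 and 9.93 with GLUP. The groups do not overlap, and the log2 difference was -0.14 ± 0.07 (95% interval -0.30 to 0.01). Libraries labelled TEAD4KO had 11.9, 11.1 and 12.5 FPKM of GCLM untreated against 10.9, 11.8 and 11.5 with GLUP, which overlap. Its catalytic partner GCLC (ENSG00000001084; chromosome 6, 53362139 to 53481768, minus strand, 16 exons) stayed between 13.95 and 16.7 FPKM in all 12 libraries, with log2 differences with GLUP of -0.03 ± 0.07 in WT and -0.05 ± 0.07 in libraries labelled TEAD4KO. The ratio of GCLC to GCLM was 1.42 ± 0.121 in untreated WT and 1.54 ± 0.027 in WT with GLUP (SD, n = 3), within which the untreated libraries reached 1.53. Under the TEAD4KO label it was 1.36 ± 0.037 and 1.35 ± 0.073.

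SLC7A11 (ENSG00000151012; chromosome 4, 139085251 to 139163503, minus strand, 12 exons) was the only member with a positive GLUP difference in WT. That sign turned with the GC and length correction (-0.0031). In libraries labelled TEAD4KO, TXNRD1 (0.04) and ME1 (0.03) were positive as well as SLC7A11. SLC7A11 was at 8.66, 8.34 and 8.56 FPKM in untreated WT and at 8.85, 8.13 and 9.49 with GLUP, and at 9.17, 7.15 and 8.75 untreated and 8.10, 9.29 and 10.6 with GLUP in libraries labelled TEAD4KO. All groups overlap, with log2 differences of 0.04 ± 0.10 in WT and 0.14 ± 0.10 (95% interval -0.08 to 0.36) in libraries labelled TEAD4KO.

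The quinone reductase NQO1 (ENSG00000181019; chromosome 16, 69740899 to 69760571, minus strand, 6 exons) was at 86.6, 98.2 and 95.4 FPKM in untreated WT and at 85.5, 92.5 and 85.6 with GLUP. The libraries labelled TEAD4KO held 89.2, 112 and 114 FPKM of it untreated, and 104, 113 and 87.9 with GLUP. The lowest library of each TEAD4KO group, untreated 1 and GLUP 16, is the one that lay nearest to WT on the first principal component. ME1 (ENSG00000065833; chromosome 6, 83920121 to 84140770, minus strand, 14 exons) was at 22.9, 22.0 and 23.2 FPKM in untreated WT and at 22.6, 21.1 and 21.1 with GLUP, and at 23.9, 24.0 and 25.7 untreated and 25.3, 25.0 and 24.6 with GLUP in libraries labelled TEAD4KO. For ME1 all 6 libraries labelled TEAD4KO are above all 6 of WT, while the groups with and without GLUP overlap. Among all rows, 18.3% were higher under the TEAD4KO label without overlap untreated, and 16.7% with GLUP. ME1 passed the test in neither of these comparisons.

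In libraries labelled TEAD4KO no member passed the test for GLUP either (0.0445% of all rows were called). None reached an unadjusted p under 0.05, against 6.38% of all rows, 6 of 9 differences were negative (56.9% of all rows), SRXN1 alone was lower without overlap (3.98% of all rows), and the median was -0.05 against -0.02 over all rows. The difference between the GLUP effects was tested itself. The interaction called 0 members (0.00891% of all rows); 1 member, HMOX1, had an unadjusted p under 0.05, against 2.53% of all rows. Its interaction was 0.33 ± 0.12 (95% interval 0.07 to 0.58; limma, adjusted p = 1.000), and that of OSGIN1 was 0.29 ± 0.14 (95% interval -0.0027 to 0.59). No member's GLUP effect was thus shown to differ between the genotype labels. Over both genotype labels together GLUP called 0 members (0.258% of all rows), with 3 at an unadjusted p under 0.05 against 7.14% of all rows. HMOX1 had a log2 difference of -0.30 ± 0.06 (limma, adjusted p = 0.0660), SRXN1 -0.16 ± 0.05 (adjusted p = 0.318) and OSGIN1 -0.18 ± 0.07 (adjusted p = 0.571). Leaving out WT untreated 3 or TEAD4KO untreated 1 brought HMOX1 under the threshold, at an adjusted p of 0.0456 and 0.0499.

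**Figure D3:**
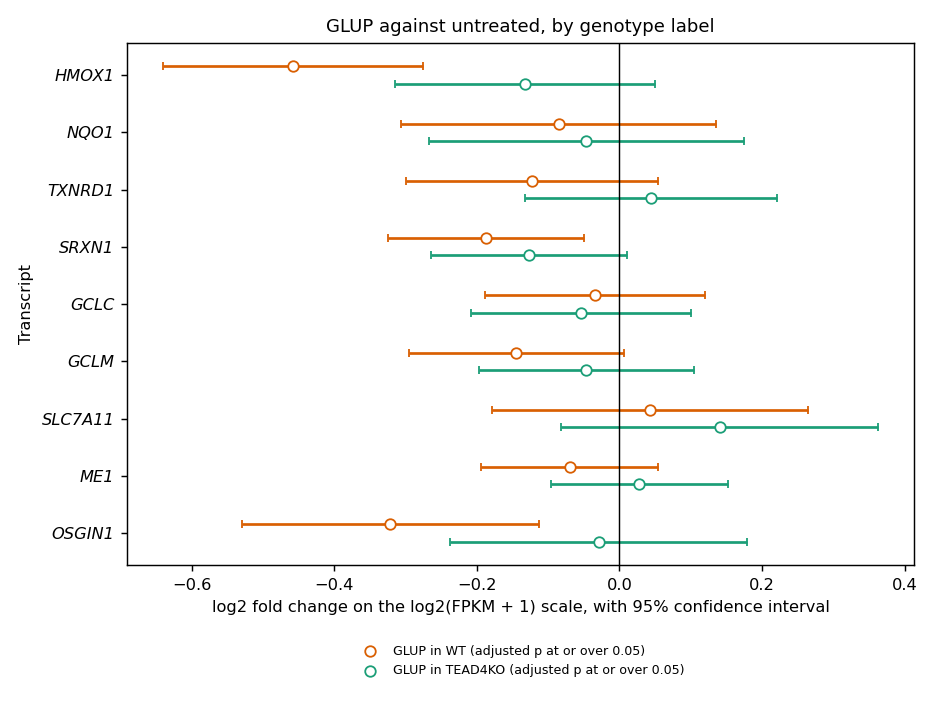
Log2 difference with GLUP against untreated (x axis, log2(FPKM + 1) scale, bars are 95% confidence intervals) for the 9 members, in WT (orange) and in libraries labelled TEAD4KO (green). Open symbols mark an adjusted p at or over 0.05, which holds for all 18 values; the WT intervals of HMOX1, SRXN1 and OSGIN1 lie below 0.

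The next question was how the members differed between the genotype labels. Without GLUP none passed the test (5.42% of all rows were called), and 1, HMOX1, had an unadjusted p under 0.05, against 21.7% of all rows. HMOX1 had a log2 difference of 0.22 ± 0.08 (limma, adjusted p = 0.151), NQO1 0.16 ± 0.10 (adjusted p = 0.387) and OSGIN1 0.16 ± 0.10 (adjusted p = 0.370). After the correction for transcript length and GC content, HMOX1 was at 0.08 ± 0.09 (adjusted p = 0.689) and OSGIN1 at -0.07 ± 0.10 (adjusted p = 0.777). ME1 alone had groups that do not overlap, higher under the TEAD4KO label, against 18.3% of all rows. The median over the members was 0.07 against 0.02 over all rows.

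With GLUP, HMOX1 and OSGIN1 were higher in the libraries labelled TEAD4KO than in WT and passed the test, 2 of 9 members against 4.91% of all rows called higher and 5.84% called in either direction. HMOX1 had a log2 difference of 0.54 ± 0.08 (95% interval 0.36 to 0.72; limma, adjusted p = 0.00329), a ratio of means of 1.49, and all 3 libraries labelled TEAD4KO were above all 3 of WT. OSGIN1 had 0.45 ± 0.10 (0.24 to 0.66; adjusted p = 0.0161), a ratio of 1.46, also without overlap. ME1 followed at 0.20 ± 0.06 (adjusted p = 0.0564), and passed in 10 of the 24 alternatives that set no fold limit. Groups did not overlap, higher under the TEAD4KO label, for 5 members (HMOX1, OSGIN1, ME1, GCLM and SRXN1), against 16.7% of all rows. The median over the members was 0.16 against -0.0039 over all rows, and 8 of 9 were positive, GCLC (-0.02 ± 0.07) being the exception, while 50.8% of all rows were negative. This comparison uses the same 3 WT libraries with GLUP as the comparison of GLUP in WT, so the 2 sets of differences are not independent.

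The OSGIN1 call rested on single libraries: its adjusted p was 0.0601 without WT GLUP 15, 0.0917 without WT GLUP 16, 0.0790 without TEAD4KO GLUP 14 and 0.0526 without TEAD4KO GLUP 15. Fold changes between the genotype labels also followed transcript length and GC content across all genes (Spearman rho over 11077 genes -0.52 with length and 0.30 with GC untreated, -0.48 and 0.20 with GLUP). Those with GLUP did so in the opposite sense (0.24 with length and -0.12 with GC in WT, 0.20 and -0.23 under the TEAD4KO label). HMOX1 (1554 bases, 57.7% GC) and OSGIN1 (1922 bases, 64.7% GC) have the shortest and most GC-rich transcripts of the 9. After each library was corrected for these trends, the differences with GLUP in WT were -0.45 ± 0.09 for HMOX1 and -0.31 ± 0.10 for OSGIN1. Between the labels with GLUP, HMOX1 then kept its call at 0.44 ± 0.09 (adjusted p = 0.0198), ME1 passed at 0.22 ± 0.05 (adjusted p = 0.0243), and OSGIN1 was at 0.28 ± 0.10 (adjusted p = 0.138). Without both TEAD4KO libraries nearest to WT, 4 members passed the test with GLUP: HMOX1 (adjusted p = 0.000907), OSGIN1, NQO1 (log2 difference 0.30, adjusted p = 0.00610) and ME1 (adjusted p = 0.0207). Those libraries were left out because they lay near WT, which itself widens the difference, and 27.8% of all rows were called in that fit. HMOX1 passed it in every alternative run, with an adjusted p of 0.0474 at most, other than a call that also needs a fold change over 2.

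**Figure D4:**
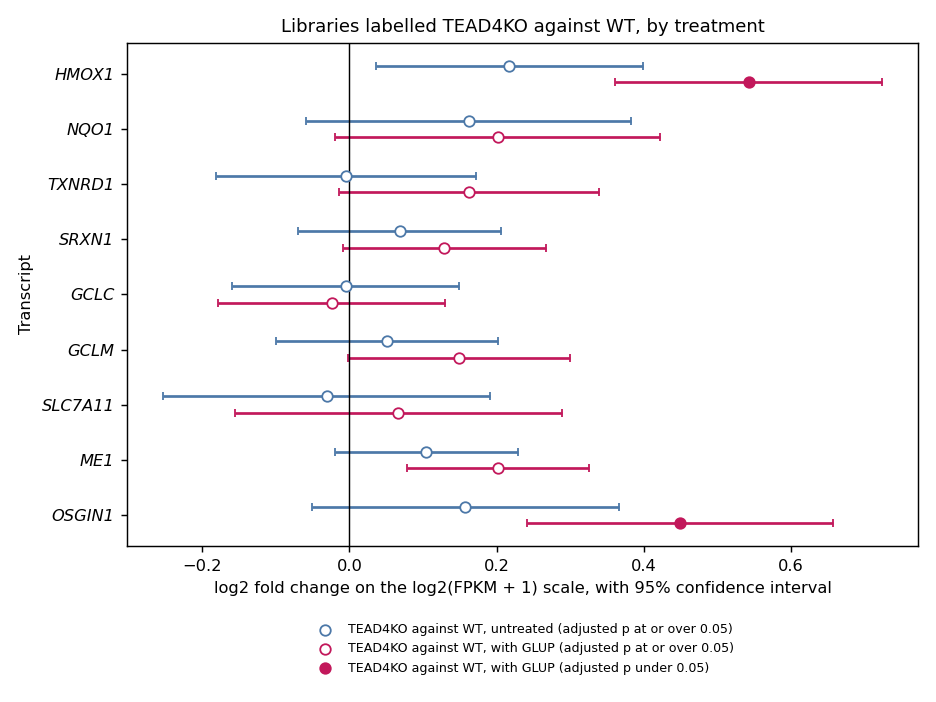
Log2 difference of libraries labelled TEAD4KO against WT (x axis, log2(FPKM + 1) scale, bars are 95% confidence intervals) for the 9 members, untreated (blue) and with GLUP (pink). Filled symbols mark an adjusted p under 0.05, which only HMOX1 and OSGIN1 with GLUP have.

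Markers that moved beside these differences were examined by group. The summed FPKM of the 9 epithelial markers was 9.81 to 10.96 in untreated WT, 7.90 to 8.69 in WT with GLUP, 10.6 to 13.5 in untreated libraries labelled TEAD4KO and 8.32 to 10.6 in those with GLUP. This sum is mostly KRT8 and CDH1. Its range was lowest in WT with GLUP, where HMOX1 and OSGIN1 were also lowest. That range overlaps the one of libraries labelled TEAD4KO with GLUP, and the part of this sum in the result was not tested. The mesenchymal sum (VIM, ZEB1 and CDH2, nearly all of it VIM) was 1316 to 1386, 1259 to 1321, 1422 to 1629 and 1369 to 1724 FPKM in the same order. It separated the genotype labels without overlap in both conditions. Its range was also lowest in WT with GLUP, though it overlaps that of untreated WT, and its part in the result was not tested. The sum of the 7 measured markers of other cells, set by COL1A1 and DCN, was 307 to 321, 309 to 341, 265 to 363 and 224 to 312 FPKM in the same order and overlaps between all groups. In bulk RNA, fewer cells of a type and less RNA per cell cannot be told apart.

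The members did not move as 1 block. Over the 12 libraries the median Pearson correlation of log2(FPKM + 1) among their 36 pairs was 0.51, from -0.46 (NQO1 with SLC7A11) to 0.87 (HMOX1 with OSGIN1), and 28 pairs were positive. Computed on deviations from the group means, the median was 0.20. These are descriptions over libraries that share groups, 2 genotype labels and any difference in composition. For the members other than SRXN1, the gene outside the 9 with the most similar pattern, by the same measure over 12 libraries, was SDHAF3 for HMOX1 (0.94), GALNT18 for OSGIN1 (0.93), ERG28 for TXNRD1 (0.92), TMEM43 for GCLM (0.94), CCDC77 for GCLC (0.90), LEMD3 for SLC7A11 (0.94), CHTF8 for NQO1 (0.95) and MAGEA6 for ME1 (0.93). MAGEA6 has near-identical copies, so its own values are uncertain.

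The rest of the pathway was read from 7 lists with 65 genes, of which 64 had a row and 54 passed the filter. GLUP called 0 of the 54 in WT and 0 in libraries labelled TEAD4KO, with 4 at an unadjusted p under 0.05 in each (3.43% and 6.38% of all rows). Of the 54 differences 43 were negative in WT and 42 in libraries labelled TEAD4KO, against 46.1% and 56.9% of all rows. Their medians were -0.09 and -0.05, against 0.0088 and -0.02 over all rows tested.

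NFE2L2 itself was at 38.4, 38.4 and 36.5 FPKM in untreated WT, 37.0, 35.7 and 33.6 in WT with GLUP, 37.3, 36.6 and 42.4 in untreated libraries labelled TEAD4KO and 36.3, 37.4 and 39.2 in those with GLUP. Its values overlap in each comparison, and it was called in none (log2 differences with GLUP -0.09 ± 0.07 in WT and -0.04 ± 0.07 under the TEAD4KO label). The transcript level does not measure NRF2 protein, which is set mainly by degradation. KEAP1, its inhibitor, was at 81.8, 82.4 and 79.0 FPKM in untreated WT and at 73.3, 74.5 and 71.2 with GLUP, without overlap (-0.15 ± 0.06, limma, adjusted p = 0.999). Under the TEAD4KO label KEAP1 was at 92.0, 85.1 and 84.7 untreated and at 92.2, 83.0 and 82.3 with GLUP, and the comparison of the labels with GLUP called it higher (0.23 ± 0.06, adjusted p = 0.0390). That call was lost in 14 alternatives, among them the GC and length correction (adjusted p = 0.0722).

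MAFF, a small MAF partner, had the highest GLUP difference of the 11 regulators under both labels, at 0.32 ± 0.12 in WT (adjusted p = 0.999) and 0.26 ± 0.12 in libraries labelled TEAD4KO (adjusted p = 0.769), and neither passed the test. Between the labels it was at 0.38 ± 0.12 untreated (adjusted p = 0.0753) and 0.32 ± 0.12 with GLUP (adjusted p = 0.125). With GLUP it was called after quantile normalization (adjusted p = 0.0449; 4.54% of all rows called higher) and with array weights (0.0487; 12.9%). It is a low transcript, at 1.99 to 2.54 FPKM in untreated WT and 2.92 to 3.05 with GLUP. The lowest regulator was ATF4, an amino acid stress factor that also activates SLC7A11, at -0.19 in WT, and SQSTM1, an autophagy receptor that binds KEAP1, at -0.10 under the TEAD4KO label. The other regulators measured (CUL3, RBX1, MAFG, MAFK, BACH1 and NFE2L1) passed the test in no comparison of the printed model. CUL3 was called lower between the labels with GLUP in alternatives such as array weights (adjusted p = 0.0345), where 22.2% of all rows were called.

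The 6 effector lists gave GLUP differences in WT from TKT (-0.10) to PGD (0.04) for NADPH and the pentose phosphate path, GSTP1 (-0.11) to MGST3 (0.16) for glutathione use, TXN2 (-0.11) to PRDX2 (-0.01) for thioredoxin and peroxiredoxin, FECH (-0.21) to SLC40A1 (0.10) for haem and iron, TRIM16L (-0.34) to CBR3 (0.06) for reductases, conjugation and export, and SOD1 (-0.14) to CAT (-0.05) for superoxide and peroxide enzymes outside the NRF2 set. TRIM16L was thus the nearest of the list genes to HMOX1 in WT, at 39.5, 43.6 and 40.4 FPKM untreated and 31.1, 32.4 and 33.1 with GLUP (-0.34 ± 0.07, limma, adjusted p = 0.248, and 0.00462 with the libraries weighted). Under the TEAD4KO label the highest of the NADPH list was IDH1 (-0.01), and the other lists ran from GSTM3 (-0.29) to GSR (0.08), TXNRD2 (-0.31) to PRDX3 (-0.01), BLVRA (-0.31) to SLC48A1 (0.11), TRIM16L (-0.13) to ALDH3A1 (0.17) and GPX1 (-0.19) to CAT (0.06).

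Between the genotype labels 6 of the 54 list genes were called higher untreated and 7 with GLUP, against 4.92% and 4.91% of all rows, and 0 were called lower. The balance of calls over all rows depended on the scaling: 552 higher and 56 lower untreated became 357 and 246 after quantile normalization and 320 and 133 after median-ratio scaling, and 551 and 105 with GLUP became 510 and 299 after quantile normalization. With the GC and length correction they were 124 and 72 untreated and 290 and 136 with GLUP. The FPKM totals and the share of rows at 0 split by the same labels, and their part in these calls was not tested. The autophagy receptor SQSTM1 was higher under the TEAD4KO label by 0.40 ± 0.08 untreated (limma, adjusted p = 0.0106) and by 0.45 ± 0.08 with GLUP (adjusted p = 0.00460). GSTP1, a glutathione transferase, was at 181 to 202 FPKM in untreated WT and at 266 to 324 in untreated libraries labelled TEAD4KO (0.56 ± 0.09, adjusted p = 0.00395; with GLUP 0.57 ± 0.09). BLVRB, of the haem and iron list, had 0.66 ± 0.13 and 0.63 ± 0.13, the carbonyl reductase CBR1 0.32 ± 0.07 and 0.43 ± 0.07, and the glutathione peroxidase GPX1 0.53 ± 0.10 and 0.47 ± 0.10, all called in both. Leaving out 1 library ended the GPX1 call with GLUP (without WT GLUP 14 or 16 or TEAD4KO GLUP 14 or 15, adjusted p 0.0509 to 0.0838) and untreated (without WT untreated 3, 0.0611). It ended the BLVRB call with GLUP (without WT GLUP 16 or TEAD4KO GLUP 14 or 15, 0.0545 to 0.0612) and untreated (without WT untreated 3 or TEAD4KO untreated 2, 0.0527 to 0.0670), the CBR1 call untreated (without WT untreated 1 or 3, 0.0561 to 0.0919) and the SQSTM1 call untreated (without WT untreated 2 or 3, 0.0507 to 0.0626). TXNRD2, the mitochondrial thioredoxin reductase, was called untreated only (0.48 ± 0.13, adjusted p = 0.0452, lost in 16 of those 24 alternatives, including 10 of the 12 that leave out 1 library) and TRIM16L with GLUP only (0.44 ± 0.07, adjusted p = 0.00329). Whether those 2 differ between the conditions is the interaction, which called 0 of the 54.

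The lowest values of the lists between the labels were CUL3 (-0.11 untreated and -0.17 with GLUP), IDH1 (-0.01) for NADPH untreated, GSR (-0.18 and -0.09), PRDX3 (0.04) and PRDX6 (0.12), SLC48A1 (-0.20) and SLC40A1 (-0.08), ABCC1 (-0.25 and -0.36), and CAT (0.03) and SOD1 (0.12). The highest of the NADPH list, not called, were TALDO1 untreated (0.26) and TKT with GLUP (0.19). TALDO1 untreated was called in alternatives such as array weights (limma, adjusted p = 0.0386) and the replicate block (0.0396). Those settings called 5.19% and 6.41% of all rows higher. ABCC1 with GLUP was called lower in alternatives such as array weights (adjusted p = 0.00854), and GSR untreated in ones such as quantile normalization (0.0214). Those settings called 1038 and 246 rows lower. PRDX5, the highest of the thioredoxin list with GLUP (0.34), was not called, but was with the replicate block (adjusted p = 0.0360), under which 10 of the 54 were called higher with GLUP, as were 6.76% of all rows. It was also called with array weights (adjusted p = 0.00308; 12.9% of all rows called higher) and without TEAD4KO GLUP 16 (0.00135; 10.1%). The fit without both nearest libraries called it too (0.000596; 14.5%). After correction for GC content and length, GSTP1 was the only one of the 6 genes called untreated that kept its call (0.33 ± 0.06, adjusted p = 0.0284), and SQSTM1, GSTP1, BLVRB, CBR1 and TRIM16L were the 5 of the 7 called with GLUP that did.

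**Figure D5:**
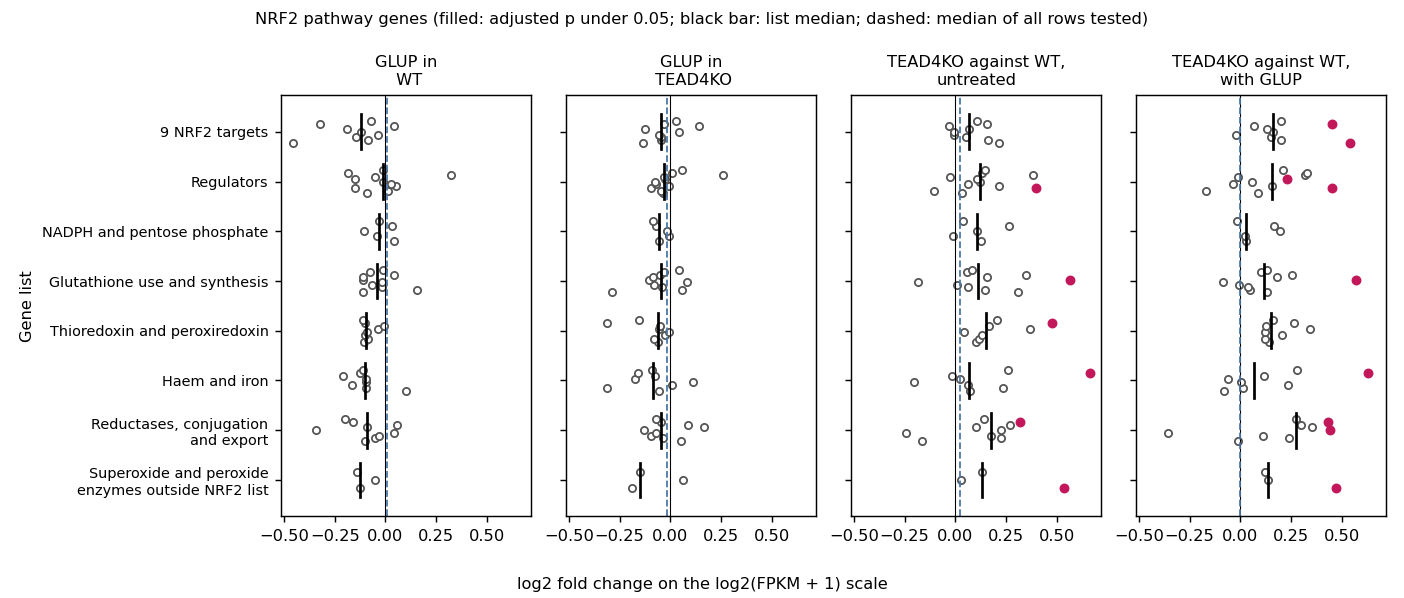
Log2 differences (x axis, log2(FPKM + 1) scale) of the 9 members and of the 54 tested genes of 7 pathway lists in 4 comparisons; each dot is 1 gene, filled where the adjusted p is under 0.05, the black bar is the list median and the dashed line the median of all rows tested. In both GLUP panels no dot is filled, while 6 list genes are filled in the untreated comparison of the labels and 7 list genes and 2 members in the one with GLUP.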

How the data were processed

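HGC-27 RNA-seq was deposited by the authors as FPKM, with 1 column per library and 1 row per Ensembl gene. The authors analysed the reads on the Majorbio cloud platform, and the submitters' processing notes name HISAT2, Cufflinks, RSEM and hg19 without versions or roles. FPKM is relative to the library total, so abundant genes, fragment length and GC content can shift it. Depth is unknown, since low values did not keep steps of whole reads (the most common ratio held 1.68% of rows in the highest pair of libraries).

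Values were analysed as log2(FPKM + 1) with limma 3.58.1 in R 4.3.3 (1 model of 4 groups, eBayes with trend, two-sided, Benjamini-Hochberg over the 11225 rows that averaged 1 FPKM or more), with calls at an adjusted p under 0.05 and 95% intervals. An exact permutation test of 3 against 3 cannot go below p = 0.1 and was not used. WT samples were grouped by title and the series' design. Positions are from GENCODE 44 on GRCh37, the build named hg19 in the notes, and promoters from RefSeq. Exon numbers, lengths and GC content are those of the annotation's canonical transcript.

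The members and lists were chosen with earlier results of these data known. Genes outside the 9 are named if they are listed regulators, were called, had the largest rise or fall of a list in a comparison, or were most alike to a member. Some genes that this rule names are not reported here. Replicate numbers come from the titles; deviations from group means correlated at 0.106, 0.152 and 0.336 for GLUP libraries 14, 15 and 16, which met the limit of 0.1 set for pairing, and at -0.0569, 0.203 and -0.0149 for untreated 1, 2 and 3, which did not. Unmatched GLUP pairs reached 0.134, so the hint is weak. The printed model has no block, and the block is an alternative. Alternatives were a pseudocount of 0.1, no filter, a filter at 5 FPKM, array weights, quantile normalization, median-ratio scaling, no trend in eBayes, a fold change over 2, only the groups compared, the replicate block, a GC and length correction (splines with 5 degrees of freedom), both together, and leaving out each library. Leaving out both TEAD4KO libraries nearest to WT was chosen after seeing the data.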

Additional observations from a re-analysis of the deposited data

How the results depend on the processing

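The number of members called moved as follows, with the share of all rows called under the same setting. For GLUP in WT it was 1 (HMOX1) with array weights (0.543% of rows). For TEAD4KO against WT untreated it was 2 without both TEAD4KO libraries nearest to WT (HMOX1 0.27, NQO1 0.28; 19.9% of rows, so near the background). For the same contrast with GLUP it was 0 with a fold change over 2 as well (6 of all rows) and 4 without both of those libraries (27.8% of rows). It was 1 to 3 when single libraries were left out. The share of rows called in those fits ran from 1.79% (without WT GLUP 16, 1 member) to 17.4% (without TEAD4KO GLUP 16, 3 members). For GLUP over both genotypes it was 0 to 1 when single libraries were left out. It was 1 without WT untreated 3 (0.116% of rows) or TEAD4KO untreated 1 (0.294%). The replicate block changed no call of a member (HMOX1 with GLUP, adjusted p = 0.00744), and took the list genes called higher from 7 to 10 with GLUP (all rows called in either direction, 656 to 1064) and from 6 to 9 untreated (608 to 849). With the share of all rows called higher beside each, the list genes called higher between the labels with GLUP ranged from 4 (without WT GLUP 16, 1.70% of rows, or TEAD4KO GLUP 15, 2.36%) to 16 of 54 (and 1 lower; without TEAD4KO GLUP 16, 10.1%), with 19 (and 2 lower) with array weights (12.9%) and 26 (and 2 lower) without both nearest libraries (14.5%). Untreated they were 6 as reported, 1 without WT untreated 3 (1.01%), 1 (and 1 lower) with the GC and length correction (1.10%), 9 (and 1 lower) without TEAD4KO untreated 1 (7.60%) and 20 (and 3 lower) without both nearest libraries (12.6%).

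These log2 differences changed sign, and none of them was called in the report or in the alternative; the cause was not tested. With the GC and length correction: SLC7A11 -0.0031 and PRDX2 0.018 (GLUP in WT), OSGIN1 0.036, KEAP1 0.019 and PRDX3 0.0033 (GLUP in TEAD4KO), GCLC 0.014, TXNRD1 0.015, SLC7A11 0.072, OSGIN1 -0.067, CAT -0.013, NFE2L2 -0.0013 and PRDX3 -0.074 (untreated labels), GCLC 0.028 and SOD1 -0.030 (labels with GLUP) and GCLC 0.014 (interaction), with the same values under the replicate block with that correction for the labels and the interaction. With quantile normalization: PRDX2 0.012, IDH1 0.013, KEAP1 0.0056 and PRDX3 0.017 (GLUP), CAT -0.0041, KEAP1 -0.0075, NFE2L2 -0.051 and PRDX3 -0.049 (untreated labels), PRDX6 -0.013 and SOD1 -0.0075 (labels with GLUP) and GCLC 0.016 (interaction). With median-ratio scaling: IDH1 0.0038 and PRDX3 0.0056 (GLUP in TEAD4KO), CAT -0.00083 (untreated labels) and GCLC 0.0067 (interaction). With array weights: KEAP1 0.023 (GLUP in TEAD4KO), GCLC 0.0068, TXNRD1 0.038 and IDH1 0.0099 (untreated labels). Without both nearest libraries: IDH1 0.0071 and KEAP1 0.043 (GLUP in TEAD4KO), TXNRD1 0.067 (untreated labels) and SLC7A11 -0.019 (labels with GLUP).

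Leaving out single libraries turned the sign of these, given as lowest to highest. GLUP in WT: PRDX2 -0.043 to 0.026, SLC7A11 -0.0053 to 0.095. GLUP in TEAD4KO: CAT -0.031 to 0.14, GCLC -0.097 to 0.013, IDH1 -0.047 to 0.026, KEAP1 -0.077 to 0.014, NFE2L2 -0.078 to 0.025, NQO1 -0.16 to 0.053, OSGIN1 -0.086 to 0.018, PRDX3 -0.12 to 0.065, TXNRD1 -0.028 to 0.14. Untreated labels: CAT -0.029 to 0.078, GCLC -0.030 to 0.038, IDH1 -0.045 to 0.019, NFE2L2 -0.031 to 0.072, PRDX3 -0.015 to 0.15, SLC7A11 -0.094 to 0.065, TXNRD1 -0.099 to 0.067. Labels with GLUP: GCLC -0.061 to 0.043, SLC7A11 -0.019 to 0.15. Interaction: GCLC -0.062 to 0.048, NQO1 -0.074 to 0.14. GLUP over both genotypes: TXNRD1 -0.075 to 0.0081. Depth is unknown, so the spread between libraries alone sets the precision.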
